A study of Mus musculus with 18 samples.

Results

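Hepatic stellate cells (HSC) are the vitamin A-storing pericytes of the liver. Some genes with secreted or membrane-bound products were expressed by HSC alone in Matrigel and at much lower levels in co-culture with bile duct organoids. Of these, 10 were followed across every condition of the study. They were taken by symbol from the count table, which held 35667 genes. The genes were Reln, Ecm1, Colec10, Colec11, Angptl6, Adamtsl2, Itih4, Mamdc2, Fam180a and Egfem1. They were chosen by their high level alone in Matrigel and low level in co-culture, so those levels are given below as a description. Freshly isolated HSC, HSC on plastic and the organoids were the conditions that this basis of choice did not use. Earlier results of these data were known at the choice, however, so comparisons of these conditions may not be independent of it.

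The HSC came from healthy wild-type mice, and the sources used here do not give strain, sex or age. One set of libraries was made at day 0, right after isolation, and the others at day 7. HSC were kept on plastic, alone in Matrigel (a basement membrane gel), or in Matrigel together with intrahepatic cholangiocyte organoids (ICO), which are grown from bile duct epithelium and carried a dTomato tag. ICO were also kept alone in Matrigel, which gave 6 groups of 3 libraries. The labels name a single medium for all samples, also for those of day 0, made right after isolation. It is a mixture of DMEM with serum and organoid medium with EGF, FGF10, HGF, RSPO3, gastrin, nicotinamide and N-acetylcysteine. The labels thus do not show which medium each culture received. Cells from the gels were sorted by type before RNA isolation. Levels are CPM (read counts scaled to library size), and are given for replicates 1, 2 and 3 in that order.

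Several of these products have well-known roles. Reelin is a large glycoprotein that signals through the receptors Vldlr and Lrp8 and the adaptor Dab1, and in liver it marks stellate cells. The collectins Colec10 and Colec11 bind sugars on microbes and activate complement through the Masp proteases. Ecm1 is a matrix glycoprotein that restrains the activation of latent TGF-beta in liver, and Adamtsl2 is an ADAMTS-like protein without protease activity that binds fibrillin and latent TGF-beta binding proteins. When HSC are activated, in injury or on stiff plastic, they lose retinoid storage and gain contractile and matrix proteins.

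The upstream sequences of 8 of the 10 genes were found in a promoter table from RefSeq (mouse build GRCm38.p6), and Colec10 and Mamdc2 were not matched. The count table refers to another build, so these coordinates belong to the sequences alone. The 100 bases before the annotated start are printed for Reln, the stellate marker of the set, for Ecm1, which the organoids expressed too, for Adamtsl2, the gene that departed most from the others, and for Fam180a, the other gene with an AP-1 match. Capitals mark matches to a TATA box (TATAAA), an AP-1 site (TGANTCA) or an E-box (CANNTG).
Reln, chr5:22344706-22344805, minus strand: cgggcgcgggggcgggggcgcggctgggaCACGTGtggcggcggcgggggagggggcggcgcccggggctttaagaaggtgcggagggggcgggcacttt
Ecm1, chr3:95739570-95739669, minus strand: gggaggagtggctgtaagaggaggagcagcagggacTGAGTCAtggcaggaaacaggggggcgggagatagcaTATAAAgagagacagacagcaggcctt
Adamtsl2, chr2:27079279-27079378, plus strand: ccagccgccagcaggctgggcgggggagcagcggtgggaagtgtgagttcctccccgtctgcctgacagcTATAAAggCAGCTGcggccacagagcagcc
Fam180a, chr6:35326142-35326241, minus strand: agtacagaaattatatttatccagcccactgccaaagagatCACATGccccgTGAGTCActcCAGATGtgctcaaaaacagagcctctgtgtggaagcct
Both strands were searched in windows from 250 bases before to 50 bases after the start. The TATA box letters lay in 3 of the 8 windows, against 14.2% of 27025 RefSeq windows of that length, with the first base at -27 in Ecm1 and -30 in Adamtsl2 on the gene strand and at -3 on the opposite strand in Itih4. AP-1 letters lay in 2 of 8 windows (7.92% of all), at -64 in Ecm1 and -48 in Fam180a. All 8 windows held an E-box, as did 72.1% of all windows, and the printed E-box of Adamtsl2 begins 2 bases after its TATA match. The letters of a GATA site, AGATAA, were in 2 windows (11.4% of all), those of Colec11 and Itih4, and the nuclear receptor half-site AGGTCA was in that of Itih4 (16% of all). The homeodomain core TAATTA and the TEAD site GGAATG were in none of the 8 (5.32% and 14.7% of all). The Reln window had 80.7% G or C bases, against a median of 55.2% over the 8 and 52.7% over all windows. These matches describe letters in the windows and not bound factors.

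Total counts per library lay between 6907479 and 22158674, and 3 counts, the floor used here for genes with no count, corresponded to 0.144 to 0.384 CPM. Stellate identity was checked with Lrat, the retinol-esterifying enzyme, at 2244 ± 128 CPM at day 0, 256 ± 136 CPM on plastic, 518 ± 129 CPM alone in Matrigel and 688 ± 286 CPM in co-culture (SD, n = 3 each, as for all means below). Cholangiocyte transcripts were present in both kinds of Matrigel HSC library, although the labels place HSC alone apart from organoids. Relative to ICO, an organoid share of 29.8%, 13.4% and 3.63% was estimated for HSC alone in Matrigel and of 28%, 15.3% and 41.9% in co-culture, from genes selected for being low at day 0 and on plastic. The summed level of 16 hepatocyte genes was 20673 to 21808 CPM at day 0 and no higher than 159 CPM in the HSC libraries of day 7. In these bulk libraries, fewer cells of a type and less RNA per cell cannot be told apart.

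HSC on plastic were compared with freshly isolated HSC to see whether the genes fell in another culture that contains no organoids. All 10 genes had lower levels on plastic at day 7 than at day 0 with no overlap of libraries, and 9 of them fell (edgeR, adjusted p below the 0.05 threshold). Among all 17020 genes tested, 30.5% were called lower and 38.5% had lower libraries without overlap. The median log2 fold change was -6.23 over the 10 genes, which all passed the low-count filter, and -0.10 over all genes. The exception was Adamtsl2.

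**Figure D1:**
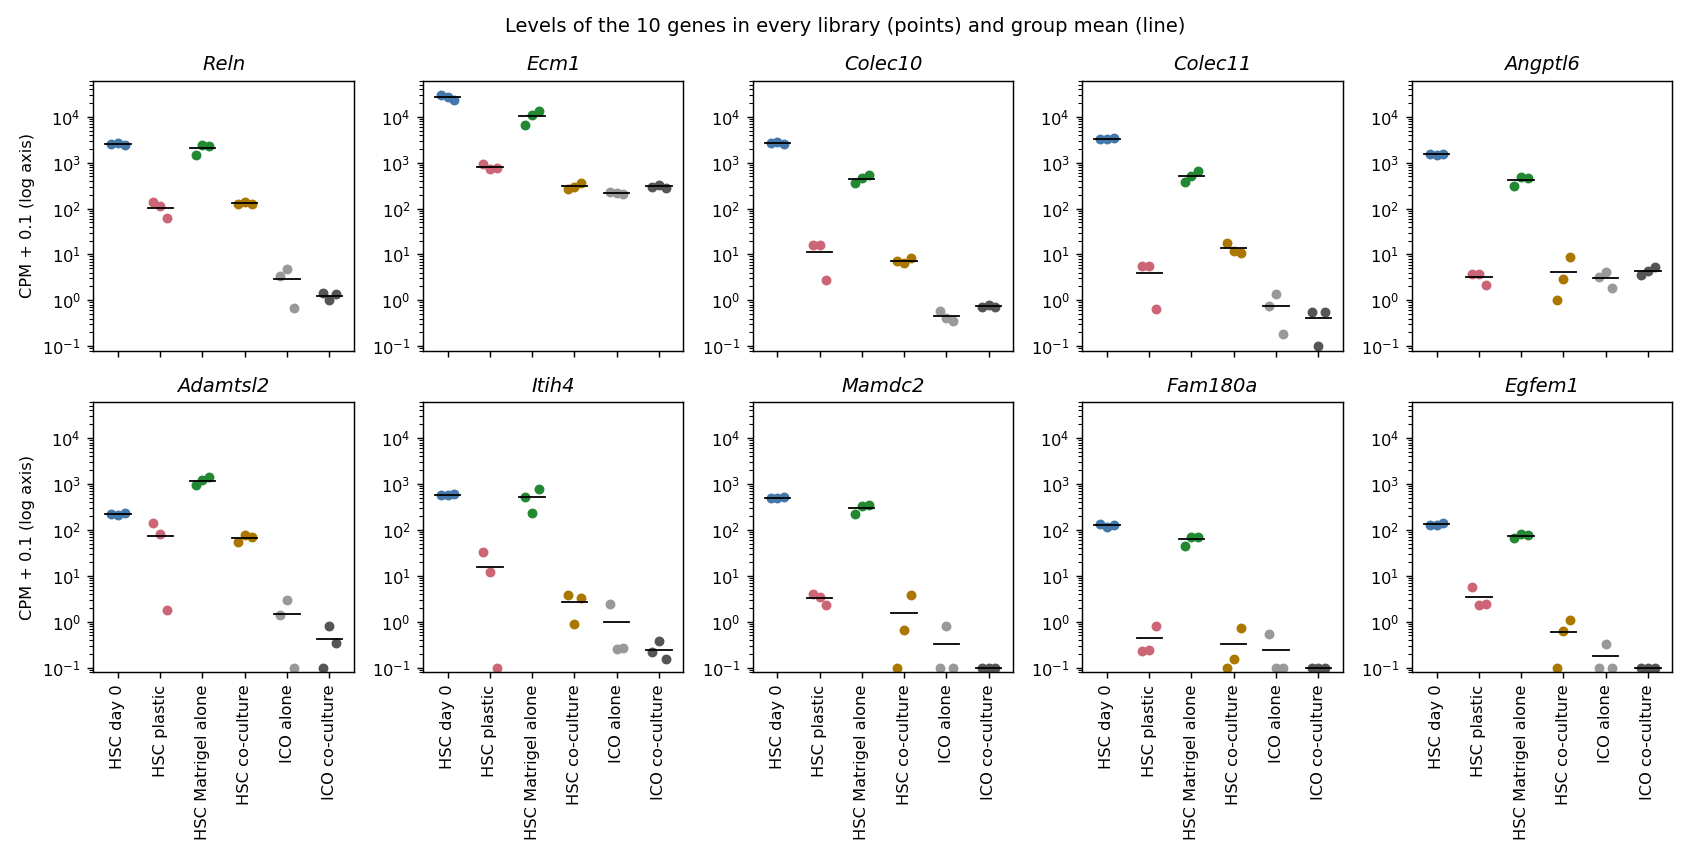
Level of each gene in every library (points, CPM + 0.1, log axis) by group, with lines at the group means. Day 0 and Matrigel-alone HSC are at the top for all 10 genes, and 9 genes have means under 5 CPM in both ICO groups.

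Reln (ENSMUSG00000042453) stood at 2575, 2745 and 2371 CPM at day 0 and at 139, 112 and 61.8 CPM on plastic. Its level on plastic was thus 4.07% of that at day 0, a log2 fold change of -4.55 ± 0.30 (SE; edgeR adjusted p = 4.37e-08). Alone in Matrigel, Reln was at 1465, 2388 and 2339.9 CPM, with replicate 2 inside the range of the day 0 libraries and replicates 1 and 3 under it. In co-culture it was at 127, 137 and 125 CPM (mean 129.9 ± 6.61), inside the plastic range. With the estimated organoid part removed and the rest scaled up, it was at 176, 162 and 214 CPM, above all 3 plastic libraries. ICO held little of it, 3.28, 4.67 and 0.587 CPM alone and 1.32, 0.899 and 1.3 CPM in co-culture. The order of the group means was day 0, Matrigel alone, co-culture, plastic and then ICO, and neighbouring groups were apart from Matrigel alone to co-culture and from plastic to ICO, and overlapped between day 0 and Matrigel alone and between co-culture and plastic.

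Of 12 other reelin pathway genes, 4 were higher and 4 lower on plastic than at day 0 (27.5% of all genes were called higher), with a median log2 fold change of 0.25. Between co-cultured and Matrigel-alone HSC 5 were higher, with a median of 0.21 against 0.03 for all genes, of which edgeR called 17.3% higher and 13.8% lower. The receptor gene Vldlr had 59.7 ± 3.11 CPM in co-cultured HSC and 5.40 ± 4.6 CPM in HSC alone (log2 fold change 3.53 ± 0.64, edgeR adjusted p = 0.00197). Vldlr had 72.3 ± 7.59 CPM in ICO from the same gels, and the part of the organoid share in its rise was not tested. Lrp8 had 3 counts in all at day 0 and 3.91 ± 1.31 CPM on plastic, and it was higher in co-culture than alone by 1.60 ± 0.48 (adjusted p = 0.0218), a call lost without co-culture replicate 1 or 3 or Matrigel replicate 2 or 3 (0.0552 to 0.089). Dab1 was at most 1.01 CPM in any of the 12 HSC libraries.

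Ecm1 (ENSMUSG00000028108) fell on plastic and stayed below its day 0 level alone in Matrigel. It had 29083, 26373 and 23586 CPM at day 0, 956, 744 and 763 CPM on plastic, and 6652, 10754 and 13543 CPM alone in Matrigel. The groups were apart, with plastic at 3.12% of day 0 (log2 fold change -4.94 ± 0.29, edgeR adjusted p = 1.42e-08) and Matrigel at 39.2%. Co-cultured HSC had 268, 292 and 363 CPM, all under the plastic libraries. ICO also expressed Ecm1, at 214 ± 9.93 CPM alone and 302 ± 22.4 CPM in co-culture, so co-cultured HSC and co-cultured ICO overlapped. If each HSC library held the estimated organoid share, ICO transcripts would make up 84.4, 46.2 and 126 CPM of Ecm1 in co-cultured HSC, or 31.5%, 15.8% and 34.9%, and at most 0.959% in HSC alone.

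Among 9 genes for matrix partners of Ecm1 and for TGF-beta activation, 1 was higher and 2 lower on plastic than at day 0 (median -0.13), and 3 were higher and 1 lower in co-culture than alone in Matrigel (median 0.63). Mmp9, a gelatinase that Ecm1 binds, had 59.6 ± 21 CPM in co-cultured HSC and 0.330 ± 0.0623 CPM in HSC alone (log2 fold change 7.49 ± 0.45, edgeR adjusted p = 1.04e-07). Fbln1, a matrix fibulin, rose by 3.99 ± 0.30. Efemp1, another fibulin, fell on plastic (-3.97 ± 0.19) and in co-culture (-2.02 ± 0.18; edgeR adjusted p = 2.61e-09 and 2.16e-06).

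Both collectins fell on plastic and were also far below day 0 alone in Matrigel. Colec10 (ENSMUSG00000038591) had 2678, 2790.3 and 2586 CPM at day 0 and 16, 15.6 and 2.71 CPM on plastic. Colec11 (ENSMUSG00000036655) had 3331, 3273 and 3375 CPM at day 0 and 5.54, 5.57 and 0.541 CPM on plastic. Both had their lowest plastic value in replicate 3. On plastic Colec10 was 224-fold and Colec11 811-fold lower by the fit (log2 fold changes -7.80 ± 0.60 and -9.66 ± 0.71, edgeR adjusted p = 1.09e-06 and 9.22e-07).

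Alone in Matrigel Colec10 was at 352, 464 and 532 CPM and Colec11 at 375, 524 and 658 CPM, which was 16.7% and 15.6% of day 0. These were the lowest percentages of the 10 genes, and both genes lay between the day 0 and plastic libraries without overlap. In co-culture Colec10 had 6.91, 6.26 and 8.19 CPM, within the plastic range. Colec11 had 17.8, 11.5 and 10.8 CPM there, above every plastic library, at 344% of the plastic mean, and at 241% without plastic replicate 3. Both had means of at most 0.657 CPM in ICO.

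Of 13 other collectin and lectin pathway genes 11 were tested, and 9 were lower and 1 higher on plastic than at day 0 (median -5.21, the same with 2 genes at 0 counts set to their bound). Fcna, a ficolin that recognises microbial sugars and is also known from macrophages, fell from 4100.3 ± 34.7 CPM to 17.9 ± 3.62 CPM. Mbl2, a plasma collectin made by hepatocytes, went from 125 ± 12.4 CPM to 0 counts, at least 2188-fold lower if 3 counts over the 3 plastic libraries are taken as the floor. Masp1, the protease that Colec11 partners with, fell from 4649.8 ± 194 to 1907 ± 195 CPM (log2 fold change -1.22 ± 0.19, edgeR adjusted p = 0.000115). Masp1 had 2565 ± 605 CPM alone in Matrigel and 369 ± 68.7 CPM in co-culture (-2.76 ± 0.21, edgeR adjusted p = 5.94e-07). In that comparison 5 of the 11 were lower and 1 higher, the latter Colec12, a membrane scavenger receptor (1.01 ± 0.19, adjusted p = 0.00137). Fcna was lower in co-culture by -6.09 ± 0.34 (adjusted p = 8.54e-08).

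Macrophage transcripts differed between the groups too. The summed level of 13 macrophage genes was 879.9 to 923 CPM at day 0, 96.1 to 461 CPM on plastic, 2372 to 3263 CPM alone in Matrigel and 123 to 191 CPM in co-culture, with 10 genes called lower on plastic than at day 0, 10 called lower in co-culture than alone, and 8 in both. Most of the Matrigel sum was Lyz2, a lysozyme of myeloid cells, at 2253 CPM against 172 CPM at day 0. The means of the other 12 summed to 736 CPM at day 0, 83.7 CPM on plastic, 447 CPM alone in Matrigel and 34.5 CPM in co-culture. Clec4f, the defining gene of Kupffer cells, was at 0 counts on plastic and in co-culture and at no more than 0.396 CPM alone in Matrigel. Adgre1 and Cd68 went the other way, with means of 24.1 and 18.7 CPM at day 0 and 60.9 and 132 CPM alone in Matrigel. Of the 13 genes, 3 were called higher and 4 lower alone in Matrigel than at day 0 (6946 of all 17020 genes were called in either direction). For 11 endothelial genes the sums were 3282 to 3293, 842 to 1034, 1125 to 1757 and 421 to 647 CPM in the same order. Eng, a TGF-beta co-receptor that mesenchymal cells can also express, made up most of them, and the means of the other 10 summed to 1281 CPM at day 0, 44.8 CPM on plastic, 72.8 CPM alone in Matrigel and 17.4 CPM in co-culture. Stab2 of sinusoidal endothelium was at 152 to 163 CPM at day 0 and at most 3.89 CPM later. The part of these cells in the falls of the 10 genes was not tested.

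**Figure D2:**
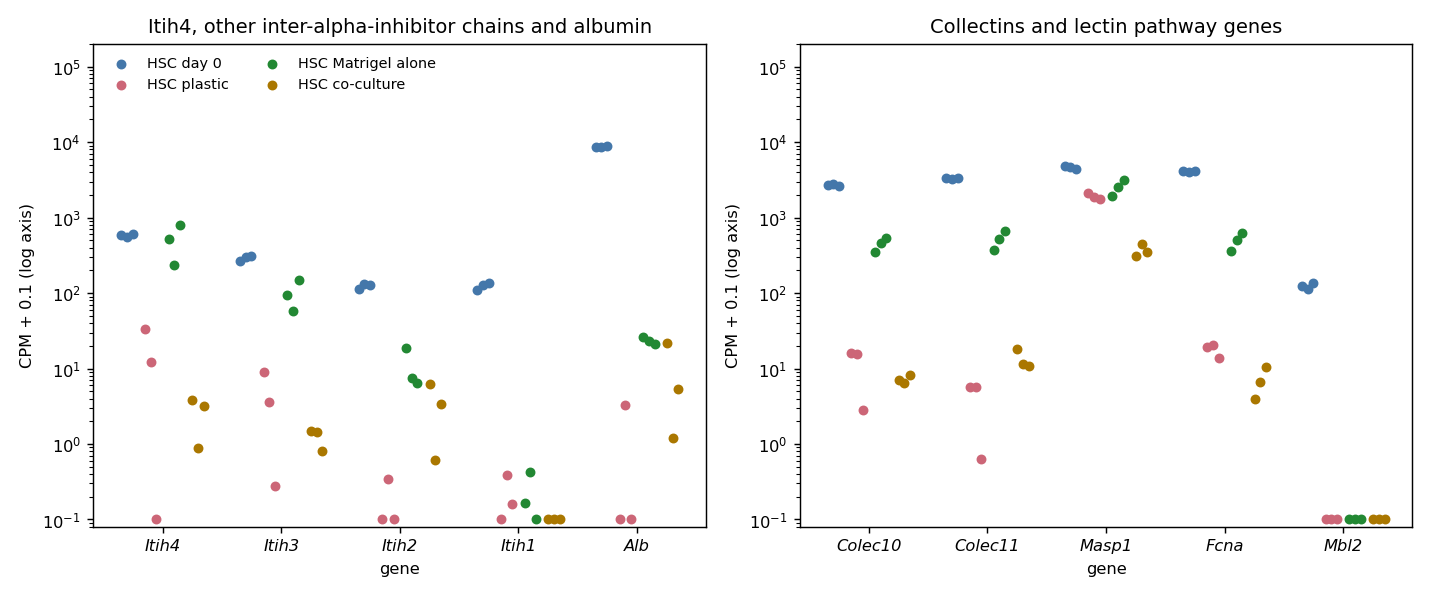
Levels by library (points, CPM + 0.1, log axis) of Itih4, other inter-alpha-inhibitor chains and Alb (left) and of collectin and lectin pathway genes (right) in the 4 HSC groups. Itih4 and Itih3 remain above 50 CPM alone in Matrigel while Itih1 is under 1 CPM, and Masp1 remains above 1000 CPM on plastic while both collectins are under 20 CPM.

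Angptl6 (ENSMUSG00000038742), an angiopoietin-like growth factor, had 1531, 1488 and 1530.2 CPM at day 0 and 3.7, 3.65 and 2.04 CPM on plastic (log2 fold change -8.85 ± 0.63, edgeR adjusted p = 6.67e-07). It had 305, 479 and 453 CPM alone in Matrigel, 27.2% of day 0. Co-cultured HSC had 0.896, 2.84 and 8.51 CPM, a range that included the plastic libraries and those of ICO (3.01 ± 1.19 CPM alone, 4.28 ± 0.935 CPM in co-culture). In co-cultured HSC the estimated organoid part of Angptl6 was 134%, 23% and 21.1% of its level.

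Of 10 tested genes of the angiopoietin and angiopoietin-like family with their receptors, 6 were lower and 2 higher on plastic than at day 0 (median -3.54). Angptl4, a lipase inhibitor, rose on plastic by 2.01 ± 0.31 and was higher in co-culture than alone by 1.30 ± 0.32 (edgeR adjusted p = 0.000156 and 0.0097). In the latter comparison 2 of the 10 were higher and 2 lower (median -0.60).

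Adamtsl2 (ENSMUSG00000036040) differed from the others. It had 219.5, 206 and 229.6 CPM at day 0 and 953, 1194 and 1420.0 CPM alone in Matrigel, so Matrigel HSC were at 545% of the day 0 mean. None of the other 9 genes was above 100% there with the scaling used here, while plain CPM put Reln at 121% and Itih4 at 132%. On plastic it had 139, 83.1 and 1.68 CPM, from 2110, 1731.4 and 28 counts, and replicate 3 was far under the other 2. The log2 fold change on plastic was -1.48 ± 0.93, which did not pass (edgeR adjusted p = 0.201, range over alternatives 0.00652 to 0.356). Without plastic replicate 3 it was -0.90 ± 0.24 and passed (adjusted p = 0.00652), so that 10 of 10 genes were then called. In co-culture Adamtsl2 had 54, 75.5 and 69.4 CPM, within the plastic range, and 5.57% of its level alone.

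Plastic replicate 3 was the lowest of its group for 7 of the 10 genes. The summed levels of 16 hepatocyte genes were 3.23, 11.3 and 0.962 CPM in plastic replicates 1, 2 and 3, and those of the 13 macrophage genes 146, 96.1 and 461 CPM. Stellate genes of quiescence summed to 2785, 2377 and 1713 CPM in the same order, and mesenchymal genes to 15713, 15719 and 11805 CPM. Activation genes summed to 19319, 23422 and 19347 CPM. The part of these differences in the low values was not tested.

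Of 13 tested genes of the ADAMTS-like family and the fibrillin network, 2 were higher and 7 lower on plastic than at day 0 (median -1.45). Ltbp4, a latent TGF-beta binding protein, fell (log2 fold change -7.18 ± 0.34), as did Papln, a papilin of the ADAMTS-like family (-9.50 ± 0.64), while Ltbp2 rose by 4.94 ± 0.46 and fibrillin-1 (Fbn1) by 0.93 ± 0.25 (edgeR adjusted p = 4.08e-09, 6.52e-08, 1.07e-06 and 0.00589). In co-culture against Matrigel alone 4 were higher and 5 lower (median 0.30). Adamtsl4, which also binds fibrillin-1, had 126 ± 30.9 CPM alone in Matrigel, near its 127 ± 1.11 CPM at day 0, and 12.1 ± 4.85 CPM in co-culture (-3.34 ± 0.27, adjusted p = 1.96e-06). Fbn1 moved the other way, with 49.5 ± 14.5 CPM alone and 237 ± 77.8 CPM in co-culture (2.31 ± 0.26, edgeR adjusted p = 2.96e-05).

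Itih4 (ENSMUSG00000021922) encodes an inter-alpha-inhibitor family chain, a plasma protein best known from hepatocytes. It had 585, 561 and 601 CPM at day 0, 33.7, 12.2 and 0 CPM on plastic (0 counts in replicate 3), and 519, 234 and 787 CPM alone in Matrigel. The fall on plastic was -5.19 ± 1.18 on the log2 scale (edgeR adjusted p = 0.00394, range over alternatives 0.000394 to 0.0243). In Matrigel it was the most variable of the 10, and its libraries lay on both sides of those of day 0. Co-cultured HSC had 3.71, 0.776 and 3.13 CPM.

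The other chains were read beside it, because hepatocyte transcripts were abundant at day 0. Itih1 was at 110 to 134 CPM at day 0 and at 0.0669, 0.33 and 0 CPM alone in Matrigel. Itih2 was at 112 to 132 CPM and then at 18.5, 7.38 and 6.33 CPM. Itih3 followed Itih4, with 269 to 310 CPM at day 0, 94.1, 58 and 151 CPM alone in Matrigel, 8.84, 3.51 and 0.18 CPM on plastic and 1.15 ± 0.39 CPM in co-culture (co-culture against alone -6.44 ± 0.92, edgeR adjusted p = 0.000633). Alb, the defining hepatocyte gene, was at 8718 ± 208 CPM at day 0 and at 20.8 to 26.3 CPM alone in Matrigel, where the Itih4 mean was 88.1% of that at day 0. Both Itih4 and Itih3 were lowest in Matrigel replicate 2.

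Of 13 tested genes of the inter-alpha-inhibitor family and hyaluronan matrix, 3 were higher and 6 lower on plastic than at day 0 (median -0.59), and 5 were higher and 2 lower in co-culture than alone (median 0.61). The plasma protein genes Ambp and Itih2 fell on plastic, with log2 fold changes of -11.23 ± 0.82 and -10.18 ± 1.05 (edgeR adjusted p = 1.32e-06 and 1.73e-05). Vcan, a hyaluronan-binding proteoglycan, rose by 5.69 ± 0.43 on plastic and by 5.75 ± 0.41 in co-culture, and the hyaluronan synthase Has2 was at 9.15 ± 0.781 CPM in co-culture and 0.0626 ± 0.0662 CPM alone (edgeR adjusted p = 4.32e-07, 1.09e-06 and 4.27e-05).

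The remaining genes were Mamdc2, Fam180a and Egfem1, which were at or near 0 in co-cultured HSC. Mamdc2 (ENSMUSG00000033207), a proteoglycan with MAM domains, had 496, 493 and 515 CPM at day 0, 3.83, 3.41 and 2.17 CPM on plastic and 219.5, 326 and 356 CPM alone in Matrigel. Co-cultured HSC had 0, 0.569 and 3.71 CPM. Fam180a (ENSMUSG00000047420) had 135, 115 and 128 CPM at day 0, 0.132, 0.144 and 0.722 CPM on plastic (2, 3 and 12 counts) and 43.9, 70.7 and 71.5 CPM alone in Matrigel. The co-culture libraries held 0, 1 and 10 counts of it. Egfem1 (ENSMUSG00000063600), a protein with EGF-like and EMI domains, had 129, 126 and 138 CPM at day 0, 5.68, 2.26 and 2.35 CPM on plastic, 64.9, 80.2 and 78.5 CPM alone in Matrigel and 0, 0.517 and 0.96 CPM in co-culture. All 3 fell on plastic, with log2 fold changes of -7.25 ± 0.66, -8.50 ± 0.55 and -5.21 ± 0.40 (edgeR adjusted p = 6.82e-06, 1.95e-07 and 4.89e-07). Unlike most of the 10, Fam180a was highest in plastic replicate 3, and all 3 genes were at 0 counts in co-cultured HSC replicate 1, the library with the lowest total count.

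Of 9 tested genes with MAM domains, 4 were lower and 2 higher on plastic than at day 0 (median -0.90), and 3 were lower and 2 higher in co-culture than alone (median -0.83). Nrp1, a semaphorin and VEGF co-receptor, fell in both comparisons, with log2 fold changes of -2.41 ± 0.15 and -0.92 ± 0.15 (edgeR adjusted p = 3.05e-08 and 0.000411). Of 9 tested genes with EMI domains 5 were lower on plastic (median -1.18), and 1 was lower and 1 higher in co-culture. The latter was Megf11 (4.31 ± 0.49, edgeR adjusted p = 2.26e-05). On plastic Megf11 was lower than at day 0 by 1.89, but at low levels, 3.01 ± 0.533 CPM at day 0 and 0.782 ± 0.647 CPM on plastic.

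**Figure D3:**
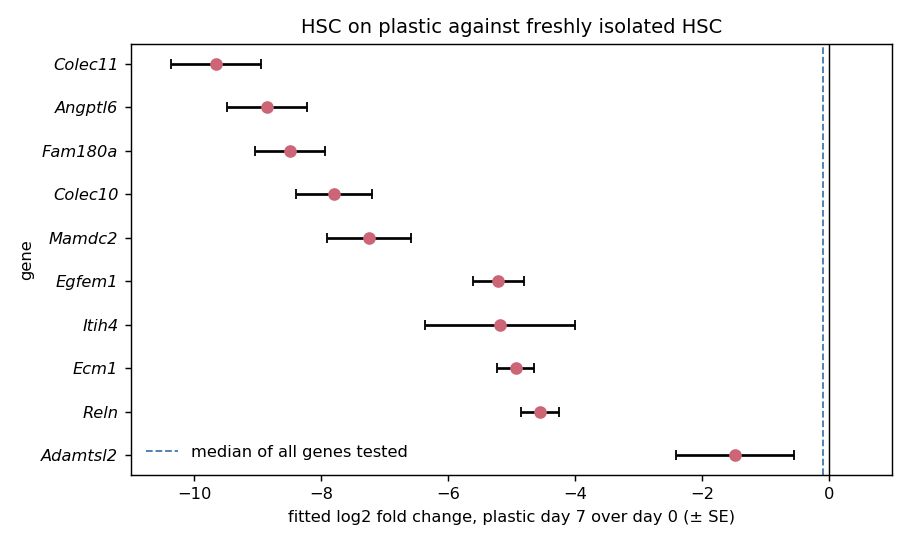
Fitted log2 fold change of each gene, plastic at day 7 over day 0 (points, bars ± SE), with a dashed line at the median of all genes tested (-0.10). The changes run from -9.66 for Colec11 to -1.48 for Adamtsl2, whose adjusted p was 0.201.

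How far each gene kept its day 0 level alone in Matrigel differed widely among the 10. The Matrigel mean was 545% of day 0 for Adamtsl2, 88.1% for Itih4 and 80.5% for Reln. It was 60.0% for Mamdc2, 56.8% for Egfem1, 49.3% for Fam180a and 39.2% for Ecm1, and it was 27.2%, 16.7% and 15.6% for Angptl6, Colec10 and Colec11. Matrigel and day 0 libraries overlapped for Reln and Itih4 and were apart for the other 8 (28.3% of all genes were lower and 27.7% higher without overlap). The scaling bears on these ratios, because plain CPM raises every Matrigel to day 0 ratio by 0.59 on the log2 scale. It puts Reln at 121% and Itih4 at 132%, while the other 8 kept their side of 100%. Matrigel replicate 1, with the highest organoid share of its group, was the lowest of the 3 for 9 of the 10 genes, and without it the percentages were between 17.8% and 599%.

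Against plastic, HSC alone in Matrigel had higher levels of all 10 genes, with fitted log2 fold changes from 3.60 for Ecm1 to 7.49 for Fam180a (median 5.12, and 0.14 over all genes). No libraries of these groups overlapped, as in 35.8% of all genes in that direction. The choice of genes used the Matrigel level, so no test was made.

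**Figure D4:**
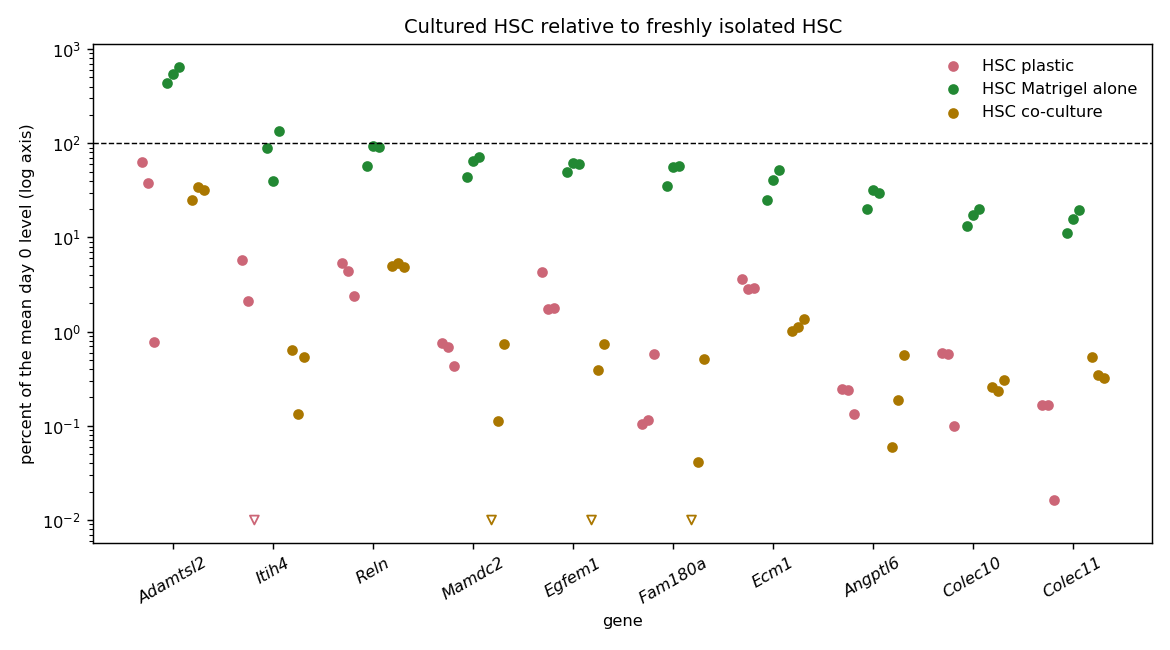
Level in each cultured HSC library as a percentage of the mean day 0 level (points, log axis), ordered by the Matrigel mean, with a dashed line at 100% and open triangles for libraries with 0 counts. Matrigel-alone libraries run from over 100% for Adamtsl2 to under 20% for Colec11, and for each gene the plastic and co-culture libraries lie under them.

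In co-culture each gene was at 0.372% (Fam180a) to 6.29% (Reln) of its level in HSC alone in Matrigel, with fitted log2 fold changes of -7.84 for Fam180a, -7.73 for Itih4, -7.53 for Mamdc2, -6.97 for Egfem1, -6.53 for Angptl6, -5.94 for Colec10, -5.25 for Colec11, -5.03 for Ecm1, -4.12 for Adamtsl2 and -3.95 for Reln. The libraries were apart for all 10, as in 22.5% of all genes in that direction, and nothing is read from this count because it was the basis of the choice. Of 6 mesenchymal genes 3 were lower and 2 higher in co-culture than alone (median -0.46), and 4 were lower and 2 higher on plastic than at day 0 (median -1.10). In co-culture the matrix proteoglycan Dcn (-2.09 ± 0.30, edgeR adjusted p = 0.000157), the receptor Pdgfra (-0.99) and the collagen Col6a1 (-1.53) were lower, and the matrix glycoprotein Sparc (2.26) and the filament protein Vim (1.02) were higher. For Lrat, Pdgfrb and Des, the markers used here for stellate identity, the changes were 0.45 ± 0.37, 0.06 ± 0.19 and 0.20 ± 0.19 (edgeR adjusted p = 0.381, 0.851 and 0.434). Other stellate genes did change. Lrat and Des are among 18 genes of quiescence, of which 12 were lower and 1 higher in this comparison (median -2.05). Tcf21, for example, was at 634 CPM alone in Matrigel and 31.5 CPM in co-culture.

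Co-cultured and plastic HSC were then set side by side. Libraries overlapped for 7 of the 10 genes. Ecm1, at 37.5% of the plastic mean, and Egfem1, at 14.4%, were lower in co-culture in every library, and Colec11 was higher (24.2% of all genes were lower and 28.1% higher without overlap). The median fitted difference was -0.52, between -2.71 for Itih4 and 1.74 for Colec11. With the estimated organoid part removed, 6 genes overlapped, and Reln joined Colec11 above the plastic libraries. The co-culture level as a percentage of plastic then moved from 69.3% to 116% for Fam180a, from 88.7% to 126% for Adamtsl2 and from 45.5% to 75.1% for Mamdc2, with overlap in each. Low counts limit this comparison for Fam180a, which had 11 counts in all in co-culture and 17 on plastic.

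Genes of HSC quiescence and activation changed along with these. Among 18 genes of quiescence, 15 had fallen and 1 had risen on plastic by day 7 (median -2.33), and 12 were lower and 1 higher in co-culture than alone in Matrigel (median -2.05). Vipr1, a receptor for vasoactive intestinal peptide, had log2 fold changes of -8.48 ± 0.64 and -6.63 ± 0.59 in these comparisons, and Ngfr, the low-affinity neurotrophin receptor, of -5.35 ± 0.35 and -6.94 ± 0.39 (edgeR adjusted p = 1.06e-06, 1.59e-05, 1.31e-07 and 1.69e-07). Of 14 activation genes 11 were higher and 1 lower on plastic (median 3.74), and 14 were higher in co-culture (median 3.71). Lox, which crosslinks collagen, rose by 6.98 ± 0.53 and 5.97 ± 0.49, and Timp1, an inhibitor of matrix proteases, by 7.05 ± 0.52 and 5.07 ± 0.46 (edgeR adjusted p = 1.16e-06, 8.91e-06, 7.12e-07 and 1.55e-05). The comparisons with co-culture use the same libraries as the choice of the 10 genes.

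The 10 genes also varied together over the 12 HSC libraries, where 2 of the 4 group levels, Matrigel alone and co-culture, were the basis of the choice. The Pearson correlation of each gene with the mean of the other 9 (log2 of CPM + 1, standardised) was 0.716 for Adamtsl2 and between 0.958 and 0.991 for the others. Among 10755 genes outside the set, Vipr1 was most like their mean (r = 0.995), with 1737 CPM at day 0, 4.64 CPM on plastic, 608 CPM alone in Matrigel and 5.74 CPM in co-culture. Next came H2-Q7 (0.995), the adrenergic receptor Adra2b (0.992), the nuclear receptor Nr1h5 (0.992), Gstt1 (0.992), the phosphatase Ssh2 (0.991), H2-Q5 (0.991) and Adamts13 (0.991), the protease that cleaves von Willebrand factor, with 500.4 CPM at day 0, 1.68 CPM on plastic, 160 CPM alone in Matrigel and 1.81 CPM in co-culture. Values of the H2-Q genes are uncertain, since near-identical genes can share reads.

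The organoids themselves were compared between co-culture and culture alone, to see whether they gained these transcripts. Only 3 of the 10 genes passed the low-count filter there, and 1, Ecm1, was called higher (8.59% of 13726 genes tested were called higher and 7.96% lower). Ecm1 had 225, 213 and 205 CPM in ICO alone and 296, 327 and 283 CPM in co-culture, with no overlap (log2 fold change 0.48 ± 0.09, edgeR adjusted p = 0.00118). The call was lost with all 18 libraries in the fit (adjusted p = 0.201, the highest over the alternatives, the lowest being 6.67e-06). Reln changed by -1.29 ± 0.55 and Angptl6 by 0.49 ± 0.34, and neither passed (adjusted p = 0.129 and 0.382). Without replicate 3 of ICO alone, Reln passed (-1.76 ± 0.43, adjusted p = 0.0115). Mamdc2, Fam180a and Egfem1 were at 0 counts in all 3 libraries of co-cultured ICO. HSC transcripts were also read in the ICO libraries. Dcn was at 21.3 ± 18.7 CPM alone and 11.7 ± 4.83 CPM in co-culture, whereas Col1a1 was at 1.48 and 15 CPM, and Sparc at 2.94 and 17 CPM (edgeR adjusted p = 0.738, 2.43e-05 and 0.0171). In HSC alone in Matrigel the means of Dcn, Col1a1 and Sparc were 21185, 120 and 1021 CPM. In co-cultured HSC they were 4855, 3165 and 4757 CPM. Of 13 tested activation genes 8 were higher and 1 lower in co-cultured ICO (median 2.31). The part of HSC transcripts in the rise of Ecm1 was not tested.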

How the data were processed

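Bulk RNA was measured in 18 libraries made with Smart-seq2 after column isolation of RNA, per the labels' protocols. The values in the authors' deposited table are estimated counts for each gene, many of them fractional. Tools listed in the submitters' processing notes are kallisto 0.46.1 and DESeq2 1.36.0, and the listed build is GRCm39, each without its role. The sources used here give neither the annotation release nor any filter. The labels do not say whether replicates are separate animals or cultures. The p-values therefore reflect the spread among these libraries alone, and that spread may be technical.

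The counts were rounded and tested with edgeR 4.0.16 (R 4.3.3; quasi-likelihood test with robust fit, TMM scaling, default low-count filter) with Benjamini-Hochberg adjustment over all genes tested and a threshold of 0.05. The 12 HSC libraries shared 1 fit and the 6 ICO libraries another. The SE was derived from the F value of the test and the fitted change. CPM used TMM factors over all 18 libraries, and a symbol on several rows was taken from the row with the highest total. The organoid share is the median, over 9 cholangiocyte genes that reached 100 CPM in each ICO group and stayed below 5 CPM in all libraries of day 0 and plastic, of a library's level divided by the mean ICO level of the same culture. Floors cover counting error only, since reads had no molecular identifiers.

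The 10 genes and the 17 other gene lists were chosen with earlier results of these data known. The text names the 10, up to 2 called genes per direction and list with a mean of at least 5 CPM, markers of other cell types, and the 8 most similar genes with at least 10 CPM. A few further list genes (Masp1, Fcna, Angptl4, Dab1, Lrp8, Itih1, Itih2, Itih3, Adamtsl4, Alb, Clec4f, Stab2) were named after their values were seen, as relatives or markers. Some genes that the rule names are not reported. Lists of lymphocyte genes (6, with sums of at most 5.42 CPM at day 0) and of portal fibroblast and mesothelial genes (8, sums of 64.5 to 271 CPM alone in Matrigel and 774 to 873 CPM in co-culture, mostly Fbln2 and Msln, which ICO also express at 496 CPM or more) were also measured. The test was checked on simulated counts. Alternatives were RLE scaling, DESeq2 1.42.0, no filter or one of at least 10 CPM in at least 3 libraries, other sets of libraries in the fit, a replicate block and leaving out each library. Subtraction of the organoid part, other scalings of the ratio of Matrigel to day 0, and levels without plastic replicate 3 were added after seeing the data.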

Additional observations from a re-analysis of the deposited data

How the results depend on the processing

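The count of the 10 genes called lower on plastic was 9 under every alternative that kept all libraries and 9 to 10 when single libraries were left out. Over all genes, 9870 were called on plastic against day 0 (8963 to 9237 when a library was left out), 6946 for Matrigel against day 0 (5528 to 6510) and 9364 for Matrigel against plastic (7812 to 9229). For co-culture against Matrigel alone 5290 genes were called, 3453 with only the 6 libraries compared in the fit and 3807 to 6099 when a library was left out. For co-cultured ICO against ICO alone 2272 were called, 546 with all 18 libraries in the fit and 1427 to 1948 when a library was left out. Of the 10 genes, 1 was called there, 3 without the low-count filter (Adamtsl2 and Itih4 besides Ecm1, both at under 3 CPM), 0 by edgeR with all 18 libraries (2 at an unadjusted p under 0.05, and 1 called by DESeq2 with the 6 ICO libraries), and 1 to 3 when a library was left out, with Reln and Adamtsl2 added without replicate 3 of ICO alone. The cause of these changes was not tested. For the 7 pairs of groups compared, libraries of the same number had deviations correlated at -0.36 to 0.09, and those of other numbers at up to 0.43. With 3 libraries per group, these values cannot show whether libraries of the same number shared an animal or an isolation. HSC and ICO of the co-culture were not compared and their pairing was not checked. With the replicate number as a block, 9 of the 10 genes were called on plastic and 1 in ICO, and 9559 and 2050 of all genes. Of 60 group levels of the 10 genes, 13 moved by over 1 SD in plain CPM and 3 with RLE scaling. Subtracting the organoid part moved 5 of 20 levels in Matrigel and put Itih4 at 104% of day 0. Depth limits the values of Fam180a, Egfem1 and Mamdc2 in co-culture, where single libraries held no counts.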
